A study of Mus musculus with 6 samples.

Results

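Aminoacyl-tRNA synthetases are the enzymes that attach each amino acid to its transfer RNA before translation. The 36 genes considered here encode the enzymes of the cytosol (20 genes) and those of mitochondria (16 genes), and they were taken by gene symbol, with Mars read under its newer name Mars1. Of these, 34 were measured, 18 of the cytosolic and 16 of the mitochondrial enzymes, among 22180 named genes in all. The probe set of the alanine enzyme gene Aars carried more than 1 gene symbol, and no probe set carried the symbol of the aspartate enzyme gene Dars alone, so neither was analysed here. Nars2, for asparagine in mitochondria, had more than 1 probe set, and the brighter was used.

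Primary lung fibroblast cultures were made from digested lungs of wild-type male C57BL/6 mice aged 8 weeks and went through no more than 3 passages. They were split over wells and given purmorphamine, at a dose written as 5um in the labels and read here as 5 µM, or vehicle, each for 24 h, and RNA of each well was measured on 1 Affymetrix array. There were 3 purmorphamine and 3 vehicle wells, without a statement of how many mice or pools they came from, so the spread behind each p-value is that of wells and may be technical. Purmorphamine activates Smoothened, the transducer of Hedgehog signals at the cell membrane.

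In the cytosol, most synthetases work as free enzymes, while a group of them is held in a large multisynthetase complex by scaffold proteins. Mitochondria translate their own few transcripts with a separate set of synthetases, which are encoded in the nucleus and imported. Gars, for glycine, and Kars, for lysine, give the enzymes of both compartments and are counted with the cytosolic enzymes. Genes of many cytosolic synthetases are known targets of ATF4, the transcription factor that is made in larger amounts when kinases phosphorylate the initiation factor eIF2 alpha, for example when amino acids are scarce.

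All values are log2 signals of probe sets, and differences are purmorphamine minus vehicle. Precision is limited by the number of arrays. Standard errors (SE) of the synthetase differences lay between 0.05 and 0.09. Array medians lay between 6.34 and 6.39, and the dimmest synthetase, Pars2, had a mean of 6.97. Leukocyte transcripts were bright in these cultures and fibroblast markers were present. Of 10 fibroblast markers 8 rose and 1 fell, with mean signals over the list of 10.47 to 10.53 on the purmorphamine arrays and 10.11 to 10.21 on the vehicle arrays. Of 10 leukocyte and macrophage markers 0 rose and 4 fell in limma (3 and 5 at an unadjusted p under 0.05), with mean signals of 11.91 to 11.96 on the purmorphamine arrays and 12.18 to 12.21 on the vehicle arrays. The leukocyte and macrophage list was split, with 5 positive and 5 negative differences, from -1.46 for Itgam to 0.20 for Marco. Of 6 epithelial markers 1 rose and of 5 endothelial markers 3 rose. Over all genes tested, 7.18% rose and 7.16% fell in limma. No marker was at 0, since array signals have no true zero, and the part of culture makeup in the differences below was not tested. In such bulk samples, fewer cells of a type and less RNA per cell cannot be told apart.

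Setting purmorphamine against vehicle shows how synthetase transcripts differed after a Hedgehog agonist. The cytosolic enzyme genes for glutamate and proline (Eprs), serine (Sars), threonine (Tars) and cysteine (Cars) rose by 1.25-fold to 1.33-fold, and the cytosolic histidine enzyme gene Hars was 1.22-fold lower. Among the mitochondrial enzymes, the tryptophan enzyme gene Wars2 rose by 1.24-fold and the methionine enzyme gene Mars2 was 1.23-fold lower. Calls below are those of limma at a Benjamini-Hochberg adjusted p under 0.05, adjusted over all named genes. By this rule 4 of 18 cytosolic genes rose (22.2%), beside 7.18% of all genes tested, and 1 of 18 fell (5.56%), beside 7.16%. Of the 16 mitochondrial genes 1 rose and 1 fell (6.25% each), which is near the background of all genes.

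Brighter genes were called more often, and a background of such genes was chosen after the values were seen. Of the 11015 genes at least as bright as the dimmest synthetase, 12.8% rose and 12.5% fell, 25.3% together, against 14.3% over all genes. Of all 34 synthetase genes 5 rose (14.7%) and 2 fell (5.88%). The signals of the 3 purmorphamine and the 3 vehicle arrays did not overlap in 20 synthetase genes (58.8%), beside 54.0% of genes of such brightness and 34.2% of all genes. As a whole, then, the family was not called more often than genes at least as bright as its dimmest member. This background is not matched in brightness to the members. Gene means were 8.81 to 12.38 in the cytosolic and 6.97 to 9.16 in the mitochondrial list. The median difference was 0.10 for the cytosolic and -0.05 for the mitochondrial genes, beside -0.0084 for all genes. With 1 array left out the cytosolic median was 0.07 to 0.11, and the mitochondrial one was -0.03 without vehicle replicate 1 and -0.08 without vehicle replicate 3. The difference between the compartments was not tested.

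**Figure D1:**
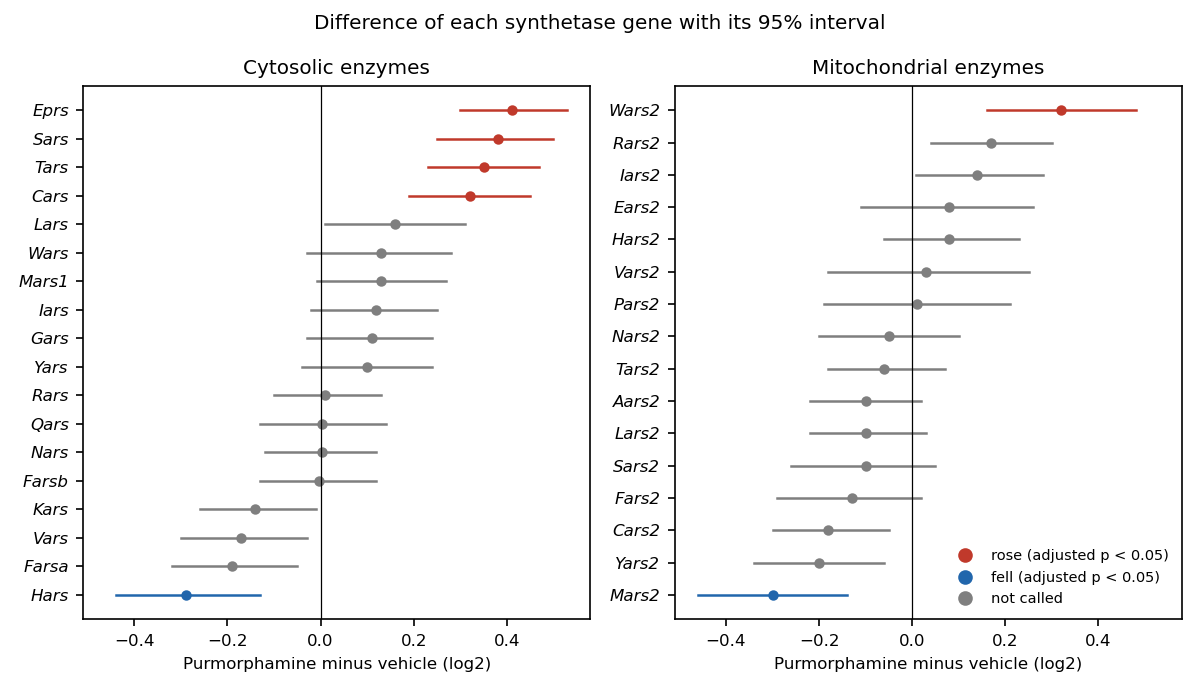
Difference in log2 signal, purmorphamine minus vehicle, of 18 cytosolic (left) and 16 mitochondrial (right) synthetase genes, each with its 95% interval from limma. Eprs, Sars, Tars, Cars and Wars2 rose, Hars and Mars2 fell, and intervals of the other 27 genes lie between -0.34 and 0.31.

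Eprs encodes a fused enzyme that charges tRNAs with glutamate and with proline and is a member of the multisynthetase complex. Its signal was 11.47, 11.48 and 11.48 on the purmorphamine arrays, against 11.07, 11.03 and 11.09 on the vehicle arrays. The groups were far apart relative to their spread. Eprs rose by 0.41 (SE 0.05, 95% interval 0.30 to 0.53, limma adjusted p = 0.00212), the largest rise among the synthetase genes.

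Sars encodes the cytosolic serine enzyme. It had signals of 12.08, 11.95 and 12.03 with purmorphamine, against 11.65, 11.62 and 11.67 with vehicle. All purmorphamine values were higher, and Sars rose by 0.38 (SE 0.05, limma adjusted p = 0.00498). Tars, for threonine, had signals of 11.39, 11.36 and 11.39 with purmorphamine, against 11.06, 10.98 and 11.06 with vehicle. Again no values overlapped, and the rise was 0.35 (SE 0.05, limma adjusted p = 0.00543). Cars, for cysteine, had signals of 9.69, 9.58 and 9.69 with purmorphamine, against 9.33, 9.34 and 9.33 with vehicle. Its purmorphamine replicate 2 lay below the other purmorphamine arrays and still above every vehicle array, and Cars rose by 0.32 (SE 0.05, limma adjusted p = 0.00863). The calls of Eprs, Sars, Tars and Cars held with any 1 of the 6 arrays left out, at adjusted p from 0.00984 to 0.0390.

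**Figure D2:**
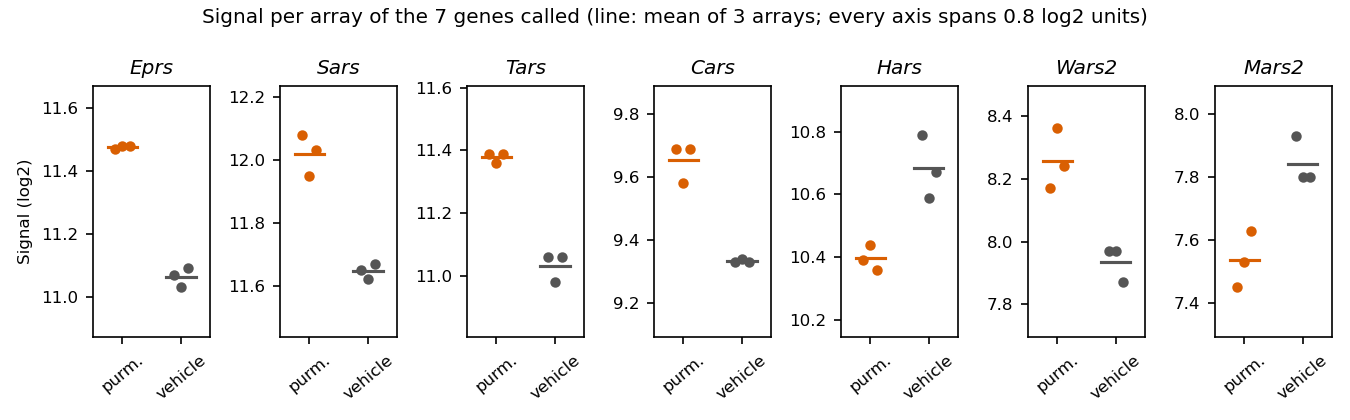
Log2 signal of the 7 synthetase genes called, with a point per array and a line at the mean of 3 arrays, purmorphamine left and vehicle right. Every vertical axis spans the same number of log2 units, and purmorphamine and vehicle values do not overlap in any of the 7 genes.

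Of the cytosolic genes, 12 are often listed as induced by ATF4, and 11 of these were measured. Eprs, Sars, Tars and Cars belong to this list. Thus 4 rose (36.4%) and 0 fell in limma (5 and 0 at an unadjusted p under 0.05). Rises were called in 7.18% of all genes and in 12.8% of genes at least as bright as the dimmest synthetase. Means of the 11 genes were 9.49 to 12.38, so neither share is matched to their brightness. The 7 members not called had small positive differences. Lars, for leucine, differed by 0.16 (95% interval 0.01 to 0.31), Mars1, for methionine, by 0.13 and Wars, for tryptophan, by 0.13. Iars, for isoleucine, differed by 0.12, Gars by 0.11, Yars, for tyrosine, by 0.10 and Nars, for asparagine, by 0.0027 (-0.12 to 0.12). Purmorphamine and vehicle values did not overlap in 8 of the 11 genes (72.7%), all higher with purmorphamine, beside 17.1% of all genes in that direction. Counting either direction, they did not overlap in 54.0% of genes at least as bright as the dimmest synthetase. The median difference was 0.13, with a range from 0.0027 to 0.41. The list was drawn up with rises of other ATF4 pathway genes in these arrays already known, and its direction is no independent evidence.

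Among the 7 other cytosolic genes measured, 0 rose and 1 fell in limma (0 and 4 at an unadjusted p under 0.05), with a median of -0.14. These are the genes that the ATF4 list leaves out, so their direction is no independent evidence either. The share that fell was 14.3%, beside 7.16% of all genes and 12.5% of genes at least as bright as the dimmest synthetase. Hars had signals of 10.39, 10.44 and 10.36 on the purmorphamine arrays, against 10.79, 10.59 and 10.67 on the vehicle arrays. The vehicle values were widely spread, yet all lay above the purmorphamine values. Hars fell by 0.29 (SE 0.07, limma adjusted p = 0.0306), and with 1 array left out the call was kept only without vehicle replicate 2 (0.0350): without any other array the adjusted p was 0.0610 to 0.0948. Farsa, the catalytic subunit for phenylalanine, differed by -0.19 (adjusted p = 0.0807), and Farsb, the other subunit of that enzyme, by -0.0033 (95% interval -0.13 to 0.12). Vars, for valine, differed by -0.17 and Kars by -0.14, with all purmorphamine values below all vehicle values in both. Rars, for arginine, and Qars, for glutamine, differed by 0.01 and 0.0038.

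The genes were also sorted by other known properties. Of the multisynthetase complex enzymes, 7 of 8 were measured, namely Eprs, Iars, Lars, Mars1, Qars, Rars and Kars. Of these 1 rose (14.3%) and 0 fell in limma (2 and 1 at an unadjusted p under 0.05), with a median of 0.12. Outside the complex, 3 of 11 cytosolic genes rose (27.3%) and 1 fell (9.09%), with a median of 0.10. Of all genes 7.18% rose and 7.16% fell, and of genes at least as bright as the dimmest synthetase 12.8% and 12.5%. Synthetases also fall into 2 classes by the fold of their catalytic domain. Of 18 class I genes of both compartments 2 rose (11.1%) and 1 fell (5.56%), with a median of 0.09. Of 15 class II genes measured 2 rose (13.3%) and 1 fell (6.67%), with a median of -0.05. Eprs, which joins a domain of each class, was left out of both.

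Among the mitochondrial enzyme genes, 14 of 16 did not pass the test. Wars2 had signals of 8.17, 8.36 and 8.24 with purmorphamine, against 7.97, 7.97 and 7.87 with vehicle. It rose by 0.32 (SE 0.07, limma adjusted p = 0.0226), and with 1 array left out it stayed called only without purmorphamine replicate 1 (0.0350), against 0.0563 to 0.0745 without any other array. Mars2 had signals of 7.45, 7.53 and 7.63 with purmorphamine, against 7.93, 7.80 and 7.80 with vehicle. It fell by 0.30 (SE 0.07, limma adjusted p = 0.0263) and stayed called only without purmorphamine replicate 3 (0.0356), against 0.0580 to 0.0875 without any other array. Neither gene's purmorphamine values overlapped its vehicle values.

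Yars2, for tyrosine, had signals of 8.18, 8.32 and 8.19 with purmorphamine, against 8.44, 8.45 and 8.40 with vehicle, a difference of -0.20 (limma adjusted p = 0.0680). Among the fits that left out 1 array it passed the test without purmorphamine replicate 2 (0.0463), and it also passed with 50 added to the linear signal, without the dimmest genes and with a robust variance trend (lowest adjusted p 0.0235). Rars2, for arginine, differed by 0.17 and Iars2, for isoleucine, by 0.14, with all purmorphamine values above all vehicle values. Fars2, for phenylalanine, differed by -0.13, Lars2, for leucine, by -0.10, Aars2, for alanine, by -0.10 and Nars2 by -0.05. The valine enzyme gene Vars2 differed by 0.03. The 95% intervals of all 27 synthetase genes not called, cytosolic ones included, lay within a 1.5-fold change either way, which is 0.58 on the log2 scale. Since changes of dim genes are compressed on arrays, these limits bound the array values.

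For 15 cytosolic genes the mitochondrial enzyme of the same amino acid was measured too. Since Eprs serves glutamate and proline, there were 16 such pairings, with both phenylalanine subunits, Farsa and Farsb, set against Fars2. In 6 of them the cytosolic gene alone was called, in 2 the mitochondrial gene alone, in 8 neither and in 0 both. The difference was above that of the mitochondrial partner for the cytosolic gene in 10 of 16 pairings, and no difference between partners was tested.

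Cars rose by 0.32, and its partner Cars2 had signals of 8.05, 8.11 and 8.13 with purmorphamine, against 8.30, 8.24 and 8.28 with vehicle, a difference of -0.18 (limma adjusted p = 0.0664). The groups did not overlap in either gene, higher with purmorphamine in Cars and lower in Cars2. Sars2 had signals of 7.73, 7.63 and 7.79 with purmorphamine, against 7.82, 7.88 and 7.76 with vehicle (difference -0.10), so its groups overlapped where those of Sars did not. Tars2 had 8.93, 8.95 and 8.92 with purmorphamine, against 8.98, 9.04 and 8.95 with vehicle (difference -0.06). The nearest values of its groups met at 8.95, unlike those of Tars.

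The mitochondrial partners of Eprs stayed close to 0. Ears2, for glutamate, had signals of 7.44, 7.28 and 7.25 with purmorphamine, against 7.34, 7.14 and 7.27 with vehicle (difference 0.08). Pars2, for proline, had 6.94, 7.02 and 6.97 with purmorphamine, against 7.07, 7.04 and 6.78 with vehicle (difference 0.01). Both overlapped between groups.

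In the pairings of Mars2, Wars2 and Hars the other partner was not called. Mars1 had signals of 10.09, 10.12 and 10.03 with purmorphamine, against 9.94, 9.87 and 10.02 with vehicle, a difference of 0.13 (limma adjusted p = 0.201), where Mars2 fell. Wars had 10.60, 10.72 and 10.56 with purmorphamine, against 10.47, 10.58 and 10.46 with vehicle, a difference of 0.13 (limma adjusted p = 0.269), where Wars2 rose. Hars2, for histidine in mitochondria, had 7.94, 7.97 and 8.00 with purmorphamine, against 7.82, 7.98 and 7.85 with vehicle (difference 0.08), where Hars fell. Hars and Hars2 are adjacent protein-coding genes on chromosome 18 in the RefSeq gene table, the only adjacent ones among the genes measured.

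**Figure D3:**
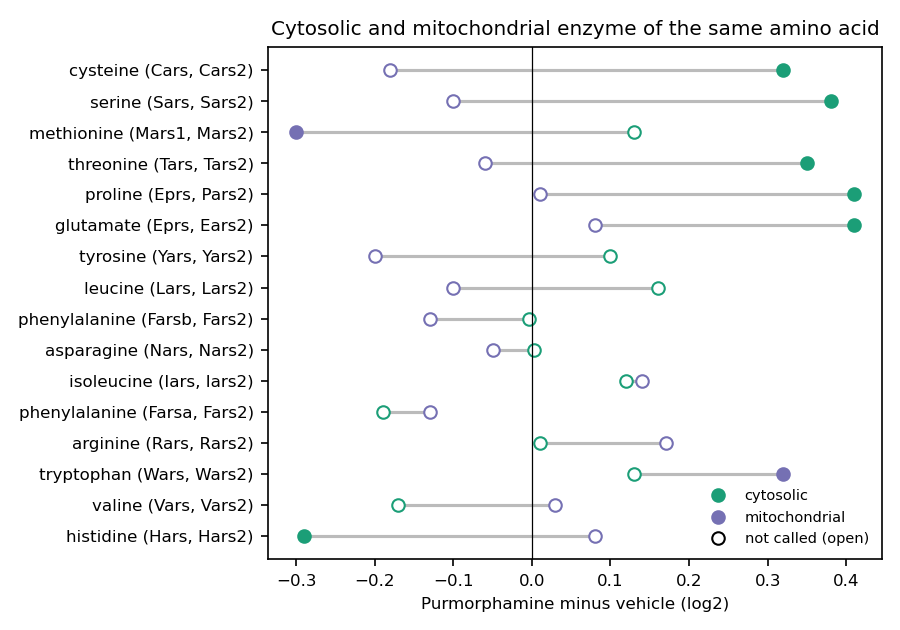
Log2 difference, purmorphamine minus vehicle, of the cytosolic and the mitochondrial enzyme gene for the same amino acid, joined by a line, in 16 pairings ordered by the gap between them. Filled points passed the test and open points did not, and no pairing has both points filled.

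Genes around the synthetases were followed with lists drawn up when earlier results of these data were known. Of 11 measured scaffolds and partners Xpot rose and Eef1e1 fell (9.09% each), beside 7.18% and 7.16% of all genes. Among genes at least as bright as the dimmest synthetase 12.8% rose and 12.5% fell. Xpot encodes the exporter that carries mature tRNAs out of the nucleus. It had signals of 10.56, 10.45 and 10.55 with purmorphamine, against 10.11, 10.03 and 10.07 with vehicle, and rose by 0.45 (SE 0.06, limma adjusted p = 0.00267). Eef1e1, a scaffold protein of the multisynthetase complex also called p18, had 10.69, 10.59 and 10.62 with purmorphamine, against 10.92, 10.93 and 10.86 with vehicle, and fell by 0.27 (limma adjusted p = 0.0177). Its call did not hold in 4 of 6 fits that omitted an array, those without purmorphamine replicates 2 or 3 or vehicle replicates 1 or 2 (0.0560 to 0.0644). Prorsd1 differed by 0.16 and Tarsl2, a threonine synthetase-like gene, by -0.12.

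Elongation factors, which take the charged tRNAs to the ribosome or move it along, were set beside them. Of 6 cytosolic ones 0 rose and 0 fell in limma (0 and 1 at an unadjusted p under 0.05), with Eef1d at -0.17, Eef1a1 at 0.09, Eef2 at 0.07 and Eef1g at -0.05. Of 18 genes of mitochondrial translation and RNA handling 0 rose and 2 fell in limma (1 and 3 at an unadjusted p under 0.05). The share that fell was 11.1%, beside 7.16% of all genes and 12.5% of genes at least as bright as the dimmest synthetase. The elongation factor gene Gfm1 fell by 0.25 and Lrpprc, which stabilises mitochondrial mRNAs, by 0.23. The call of Lrpprc was lost with any 1 array left out (adjusted p 0.0503 to 0.0833). That of Gfm1 was lost in 4 of 6 such cases, without purmorphamine replicates 1 or 3 or vehicle replicates 1 or 3 (0.0595 to 0.0647). Elac2 and Mtif2 differed by -0.18 and 0.13.

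Of 35 measured genes of the eIF2 alpha kinase and ATF4 branch, 24 rose (68.6%) and 0 fell in limma (25 and 1 at an unadjusted p under 0.05), beside rises in 7.18% of all genes and in 12.8% of genes at least as bright as the dimmest synthetase. The median difference was 0.38, beside 0.13 for the 11 synthetase genes listed as ATF4-induced. Rises of ATF4 pathway genes in these arrays were already known when the branch list was drawn up. Its share of rises is therefore no independent evidence. Atf4 itself, which rose by 0.62, had signals of 11.02, 11.10 and 11.12 with purmorphamine, against 10.42, 10.42 and 10.53 with vehicle. The asparagine synthetase gene Asns, which makes an amino acid and charges no tRNA, had 10.61, 10.68 and 10.64 with purmorphamine, against 10.30, 10.24 and 10.29 with vehicle. It rose by 0.36 (SE 0.05, limma adjusted p = 0.00428), close in size to Eprs, Sars, Tars and Cars. Sesn2, a stress-induced inhibitor of mTORC1, rose by 0.52, and the mitochondrial folate enzyme gene Aldh1l2 by 1.28. Of the 4 eIF2 alpha kinase genes, chosen after their values were seen, Eif2ak3, which senses stress of the endoplasmic reticulum, rose by 0.38 (limma adjusted p = 0.00665). Eif2ak4, which senses uncharged tRNA, differed by 0.04 (95% interval -0.09 to 0.16). Eif2ak2, which binds double-stranded RNA, differed by -0.27 (limma adjusted p = 0.0529), with all purmorphamine values below all vehicle values, and Eif2ak1, the haem-regulated kinase, by 0.11 (0.303).

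**Figure D4:**
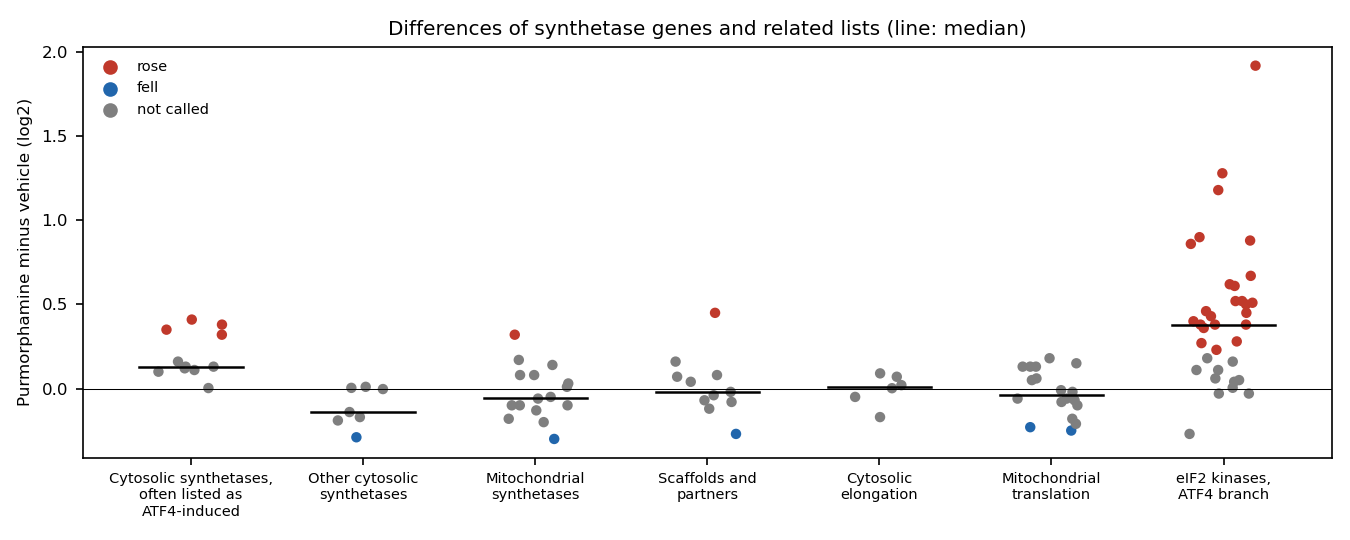
Log2 difference, purmorphamine minus vehicle, of each measured gene in 3 groups of synthetases and 4 lists of related genes, with a line at the median of each. The lists run between medians of -0.14 for the other cytosolic synthetases and 0.38 for the ATF4 branch. They were drawn up with earlier results of these data known.

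Promoters were searched because ATF4 binds, as a dimer with C/EBP proteins, a composite element whose core was written here as TGATGNAA, and because some cytosolic genes moved together. Windows of 300 bases, from 250 before to 50 after the start of a gene, were matched for 25 of the 34 genes in RefSeq (GRCm38.p6). Cars, Lars, Wars, Rars, Nars, Vars, Hars, Hars2 and Pars2 were not matched. The element was present on either strand in Tars, Gars, Iars and Yars, which is 4 of the 7 genes with a window in the ATF4 list, beside 4.51% of all genes. It was in 0 of 4 other cytosolic and 0 of 14 mitochondrial genes. Of the 4 genes with a window that rose, Tars alone held it. The full cAMP response element TGACGTCA was in 0 of the 25 windows, beside 2.03% of all genes, so no match of 1 motif overlapped a match of the other in them. Stretches from 100 bases before to 30 after the start are shown for the 4 genes with a match and for Eprs and Sars, which rose and had none, with the match in capitals. They are read 5′ to 3′ on the strand of the gene.
Tars: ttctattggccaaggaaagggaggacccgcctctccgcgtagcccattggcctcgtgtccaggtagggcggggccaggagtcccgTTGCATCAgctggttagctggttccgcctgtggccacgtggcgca
Gars: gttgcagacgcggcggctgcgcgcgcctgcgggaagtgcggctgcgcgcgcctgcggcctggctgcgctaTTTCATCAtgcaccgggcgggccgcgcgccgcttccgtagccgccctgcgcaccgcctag
Iars: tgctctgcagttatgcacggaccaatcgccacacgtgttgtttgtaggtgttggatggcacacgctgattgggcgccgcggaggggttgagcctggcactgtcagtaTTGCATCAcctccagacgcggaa
Yars: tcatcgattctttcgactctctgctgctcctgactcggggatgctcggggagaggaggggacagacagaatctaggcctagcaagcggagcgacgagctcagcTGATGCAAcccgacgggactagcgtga
Eprs: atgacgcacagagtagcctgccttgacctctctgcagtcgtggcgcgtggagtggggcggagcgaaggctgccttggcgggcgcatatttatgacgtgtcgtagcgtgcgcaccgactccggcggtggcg
Sars: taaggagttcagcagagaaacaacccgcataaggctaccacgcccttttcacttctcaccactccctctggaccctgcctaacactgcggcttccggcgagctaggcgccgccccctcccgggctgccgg

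The stretch of Tars lies at chr15:11399629-11399758 on the minus strand, and its match runs from position -15 to -8 relative to the start. That of Gars is chr6:55037901-55038030 on the plus strand, with the match at -30 to -23. That of Iars is chr13:49682030-49682159 on the plus strand, with the match just after the start at 8 to 15, and that of Yars is chr4:129189803-129189932 on the plus strand, with the match at 4 to 11. Eprs is shown from chr1:185362944-185363073 on the plus strand and Sars from chr3:108445230-108445359 on the minus strand. Set beside the arrays, Tars with a match rose by 0.35 while Gars, Iars and Yars with a match had differences of 0.11, 0.12 and 0.10 and were not called, and Eprs and Sars rose without a match in the window. Of 32 genes of the ATF4 branch with a window, 8 held the element and the others did not, beside 4.51% of all genes with it. Among the 8 were Asns, with the match at -23 to -16, Trib3, Chac1, Atf3 and Slc7a11. A match describes the letters of the window only.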

How the data were processed

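The authors' deposited values are log2 signals, 1 per probe set and array, for 41345 probe sets. The submitters' processing notes name RMA, oligo and limma without versions. RMA subtracts background and equalises the arrays, which hides any shift shared by every gene. All 6 columns were matched to samples by accession. Of the probe sets, 23521 had 1 gene symbol in the platform annotation and 1814 had several, and the brightest per gene by its mean over 6 arrays was kept, which left 22180 genes.

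Groups were compared on all 6 arrays with limma 3.58.1 in R 4.3.3 (lmFit, eBayes), without a block, two-sided, with no filter on dim genes. The fit was tested on simulated data. Members and lists were chosen with earlier results of these data known. Every member is named. Array values are given for called members, their partners in the other compartment and the 3 largest differences per compartment, and at most 4 genes are named per further list, beside a fixed few. Promoter sequences are those of RefSeq (GRCm38.p6). A planned comparison of protein sequences was not made. The alternatives tried are listed in the closing section.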

Additional observations from a re-analysis of the deposited data

How the results depend on the processing

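Results were recomputed after median centring, quantile normalization, adding 50 to the linear signal, removing the dimmest genes (a share of 0.333), averaging probe sets per gene, testing each probe set alone, fitting a variance trend robustly, weighting arrays, blocking on the replicate number, removing 1 array at a time and relaxing the threshold to an adjusted p under 0.1. The rises of Eprs, Sars, Tars and Cars held in all of them, with 4 cytosolic genes called higher, or 6 with the trend. No synthetase or related gene changed sign where it was called. With 1 array left out, the median difference was 0.07 to 0.11 for the cytosolic and -0.08 to -0.03 for the mitochondrial genes, while the list medians had an SD between replicates of 0.02 and 0.03. In the other settings both medians moved by less than that. Cytosolic genes called lower, 1 in the main fit, numbered 4 with the offset, 2 without the dimmest genes, 4 with the trend, 2 at an adjusted p under 0.1 and 0 to 1 with 1 array left out. Mitochondrial genes called higher, also 1, numbered 2 with the offset, 2 without the dimmest genes, 2 with the trend, 2 at an adjusted p under 0.1 and 0 to 1 with 1 array left out. Mitochondrial genes called lower, also 1, numbered 3 with each of those 4 settings and 0 to 1 with 1 array left out. Genes added in these settings were Farsa, Kars, Vars, Cars2, Yars2 and Rars2, and with the trend also Iars and Lars. Over all genes, 3181 were called, and 1967 to 2374 with 1 array left out, of which 897 to 1168 were higher and 1057 to 1206 lower, with fewer samples. The total was 1967 without purmorphamine replicate 1, 2065 without purmorphamine replicate 3, 2034 without vehicle replicate 2 and 2110 without vehicle replicate 3. The trend gave 2416 genes called higher. Changes of dim genes are compressed on arrays. The mitochondrial genes were dimmer, with means of 6.97 to 9.16, against 8.81 to 12.38 for the cytosolic genes. Whether this affected their calls was not tested. Fits with 1 array left out had fewer samples, and the fit without the dimmest genes tested fewer genes. The causes of the changed counts were not tested.

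Whether the replicate numbers pair the samples is not known. Deviations of same-numbered arrays correlated at 0.11, 0.02 and 0.10, and those of arrays with different numbers at -0.09 to -0.0076. These correlations were taken over genes, which are not independent replicates, and do not settle the question. With the replicate block, 0 cytosolic and 0 mitochondrial genes were called lower (3 and 3 at an unadjusted limma p under 0.05), Hars having an adjusted p of 0.0672 and Mars2 of 0.0711.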
